A study of Homo sapiens with 6 samples.

Results

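The mesenchymal effector genes described here are vimentin (VIM), fibronectin (FN1), the cadherin genes CDH2 and CDH11, and the genes of secreted or surface proteins SPARC, TGFBI, THY1, S100A4, THBS1 and TNC. They were chosen by name from the gene symbols of the deposited tables, and all 10 were found among the 17452 genes listed. RNA was sequenced from MDA-MB-231, a human cell line from a triple-negative breast tumour with a mesenchymal shape. In the 3 siControl libraries the cells had received a control siRNA. In the 3 siPHF20L1 libraries they had received siRNA against PHF20L1, which encodes a reader of methylated lysines. Cells of both groups were grown in L-15 medium with serum and were of a single line. The sources used here do not give the siRNA sequences, the number of different siRNAs or the harvest time. They also do not say whether replicate libraries stem from separate cultures, so the p-values cover only the spread among these libraries, which may be technical.

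Epithelial cells that undergo an epithelial to mesenchymal transition exchange keratin filaments for vimentin, give up E-cadherin for N-cadherin or cadherin-11, and secrete a fibronectin-rich matrix. Thrombospondin-1, tenascin-C, SPARC and TGFBI are matrix proteins that change how cells hold on to fibronectin, collagen and integrins. S100A4 is a small calcium-binding protein that binds non-muscle myosin, and THY1 is a lipid-anchored surface glycoprotein of fibroblasts and other mesenchymal cells.

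PHF20L1 itself was at 15.75, 12.48 and 12.73 FPKM in the siControl libraries and at 2.67, 2.31 and 2.74 FPKM in the siPHF20L1 libraries, so every library followed its label. FPKM, fragments scaled to transcript length and library size, is the deposited unit and allows levels to be compared between genes. From the steps of low values, each library held an estimated 17000000 to 17500000 fragments. Libraries with the number 1 stood apart from the others in both groups, and values within the number 1 and within the numbers 2 and 3 are given where they matter. MDA-MB-231 markers were high in all libraries, although AXL fell from 499 ± 9.23 to 255 ± 5.25 FPKM (SD, n = 3), CAV1 and FOSL1 also fell, and CD44 and MSN did not pass the test. Of 8 luminal epithelial markers, 5 were expressed enough to be tested. EPCAM rose from 2.20 ± 0.161 to 4.31 ± 0.796 FPKM, FOXA1 fell from 2.51 ± 0.104 to 1.19 ± 0.104 FPKM and KRT19 from 30.1 ± 4.70 to 22.1 ± 4.22 FPKM (limma, adjusted p = 0.00067, 9.8e-05 and 0.036), and CLDN4, at 69.4 ± 9.24 and 57.3 ± 7.42 FPKM, and GATA3 did not pass. ESR1 was listed at 0 in all libraries, PGR did not exceed 0.05 FPKM and CDH1 lay between 0.31 and 0.45 FPKM. The 8 summed to 90.8 to 116 FPKM in siControl and 74.7 to 94.2 FPKM in siPHF20L1 libraries, and their part in the results below was not tested. Of 4 fibroblast markers in the files, COL1A2 and COL3A1 were at or below 0.04 FPKM. COL1A1 fell from 5.72 ± 0.441 to 4.67 ± 0.386 FPKM (limma, adjusted p = 0.033). PDGFRB rose from 1.39 ± 0.129 to 1.88 ± 0.211 FPKM (limma, adjusted p = 0.026). These calls were lost under 6 of 17 and 7 of 16 alternatives. The summed level of the 4 was 6.65 to 7.48 FPKM in siControl and 5.89 to 7 FPKM in siPHF20L1 libraries. Endothelial markers summed to 0.40 to 0.54 FPKM over both groups. The leukocyte markers CD3E and PTPRC were at most at 0.04 and 1.43 FPKM. CD68, at 56.4 ± 0.733 and 52.8 ± 2.97 FPKM, made up most of the sum of 5 such markers, 60.7 to 62.8 FPKM in siControl and 54.2 to 61.2 FPKM in siPHF20L1 libraries.

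The promoters of the 6 members with a test are shown because FN1, THBS1, TGFBI and TNC moved together and VIM and S100A4 the other way. Each is given 5′ to 3′ on the gene's own strand, from 250 bases before to 50 bases after the start of the RefSeq entry (build GRCh38.p14). They lie at chr2:215436019-215436318 (minus strand) for FN1, chr15:39580829-39581128 (plus) for THBS1, chr5:136028738-136029037 (plus) for TGFBI, chr9:115118108-115118407 (minus) for TNC, chr10:17227991-17228290 (plus) for VIM and chr1:153545757-153546056 (minus) for S100A4. Capitals mark matches, on either strand, to 6 motifs, namely the TATA box TATAAA, the AP-1 site TGANTCA, the cAMP response element TGACGTCA, the GC box GGGCGG, the E-box CAGGTG that SNAI and ZEB factors bind, and the TEAD site GGAATG.
FN1: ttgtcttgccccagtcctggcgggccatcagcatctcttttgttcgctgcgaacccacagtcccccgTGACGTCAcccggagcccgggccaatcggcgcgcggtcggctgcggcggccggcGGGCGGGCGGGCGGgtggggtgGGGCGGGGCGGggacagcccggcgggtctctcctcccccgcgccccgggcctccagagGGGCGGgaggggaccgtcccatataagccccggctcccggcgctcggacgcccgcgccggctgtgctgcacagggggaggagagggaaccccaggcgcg
THBS1: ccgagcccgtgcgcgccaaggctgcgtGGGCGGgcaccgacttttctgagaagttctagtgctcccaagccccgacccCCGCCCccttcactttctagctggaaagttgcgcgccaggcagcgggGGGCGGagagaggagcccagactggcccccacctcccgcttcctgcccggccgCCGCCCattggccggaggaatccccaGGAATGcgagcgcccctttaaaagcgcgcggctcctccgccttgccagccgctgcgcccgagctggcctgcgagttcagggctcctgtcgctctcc
TGFBI: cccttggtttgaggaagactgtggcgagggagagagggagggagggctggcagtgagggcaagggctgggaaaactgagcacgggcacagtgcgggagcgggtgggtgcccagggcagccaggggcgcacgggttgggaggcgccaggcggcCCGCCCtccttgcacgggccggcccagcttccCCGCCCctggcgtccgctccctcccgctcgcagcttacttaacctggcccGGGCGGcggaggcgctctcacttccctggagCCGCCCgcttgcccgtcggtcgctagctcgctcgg
TNC: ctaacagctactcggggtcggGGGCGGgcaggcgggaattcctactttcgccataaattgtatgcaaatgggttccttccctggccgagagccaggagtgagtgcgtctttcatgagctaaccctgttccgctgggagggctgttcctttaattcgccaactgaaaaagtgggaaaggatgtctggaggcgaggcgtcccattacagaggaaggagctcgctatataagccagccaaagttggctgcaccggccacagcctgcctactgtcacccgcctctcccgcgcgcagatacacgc
VIM: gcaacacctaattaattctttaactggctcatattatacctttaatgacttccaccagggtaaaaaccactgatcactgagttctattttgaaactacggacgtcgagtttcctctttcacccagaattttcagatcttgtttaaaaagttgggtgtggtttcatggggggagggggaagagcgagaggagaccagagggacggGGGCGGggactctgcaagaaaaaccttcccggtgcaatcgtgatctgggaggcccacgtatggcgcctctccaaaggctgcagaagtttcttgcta
S100A4: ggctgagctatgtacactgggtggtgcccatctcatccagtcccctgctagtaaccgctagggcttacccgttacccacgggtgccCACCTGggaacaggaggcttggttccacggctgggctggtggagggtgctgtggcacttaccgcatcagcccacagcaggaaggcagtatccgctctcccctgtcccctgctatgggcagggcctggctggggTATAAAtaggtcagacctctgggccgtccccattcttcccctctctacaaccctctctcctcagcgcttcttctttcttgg
The FN1 promoter held 6 GC boxes, some of them adjoining or overlapping, and the cAMP response element with its first base at -183, a motif found in 1.85% of the 35116 RefSeq promoters of this length. The THBS1 and TGFBI promoters held 4 GC boxes each, and those of TNC and VIM 1 each. At least 1 GC box occurred in 45.0% of all promoters, and the number per promoter was not compared with that of all promoters. THBS1 also held the TEAD motif at -46 (14% of all promoters). S100A4 had no GC box in this window and held the TATAAA motif at -31 (11.5% of all promoters) and an E-box at -164 (20.6%). Only exact matches were marked, and the near match tataag stands in the FN1 and TNC promoters. The GC content was 76.7% for FN1, 72.7% for TGFBI, 70.0% for THBS1, 57.3% for TNC, 60.7% for S100A4 and 48.0% for VIM, against a median of 58.7% over all promoters. The table held 8 of the 10 members. Among those not shown, SPARC had no GC box and a GC content of 61.3%. The 2 CDH2 promoters had 67.0% with 1 GC box and 40.7% with none. Whether these letters go with the direction of change was not tested. A match to a motif is a description of the letters and says nothing on binding.

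The members covered the full range of transcript levels in siControl cells. VIM, with 1624 ± 17.4 FPKM (SD, n = 3), ranked 12 among all 17452 genes. FN1 (rank 1557), THBS1 (3943) and S100A4 (5536) followed, and TGFBI, TNC and SPARC were between 1 and 4 FPKM. CDH2, THY1 and CDH11 were at or near 0. The order of the 10 mean levels was the same in siPHF20L1 cells. In siControl, the ranges of TNC and SPARC overlapped (1.16 to 1.44 against 0.95 to 1.20 FPKM), as did those of CDH2 and THY1. In siPHF20L1 both pairs were apart, with TNC at 4.14 FPKM or more and SPARC at 0.67 FPKM or less, while S100A4 (lowest 8.15 FPKM) and TGFBI (highest 7.96 FPKM) had come close.

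A filter of at least 1 FPKM in at least 3 libraries left 11560 genes for the test, 6 members among them. SPARC, CDH2, CDH11 and THY1 did not pass the filter. Of the 6 members tested, 4 were higher in siPHF20L1 libraries (FN1, THBS1, TGFBI and TNC) and 2 lower (VIM and S100A4). Over all genes tested 58.6% passed the threshold, 34.0% as higher and 24.7% as lower (limma, adjusted p under 0.05). The libraries of the groups did not overlap for 5 of the 6, against 63.7% of all genes tested. Log2 differences below refer to log2(FPKM + 1), a scale that understates the change of low genes, and their median over all genes tested was 0.05.

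**Figure D1:**
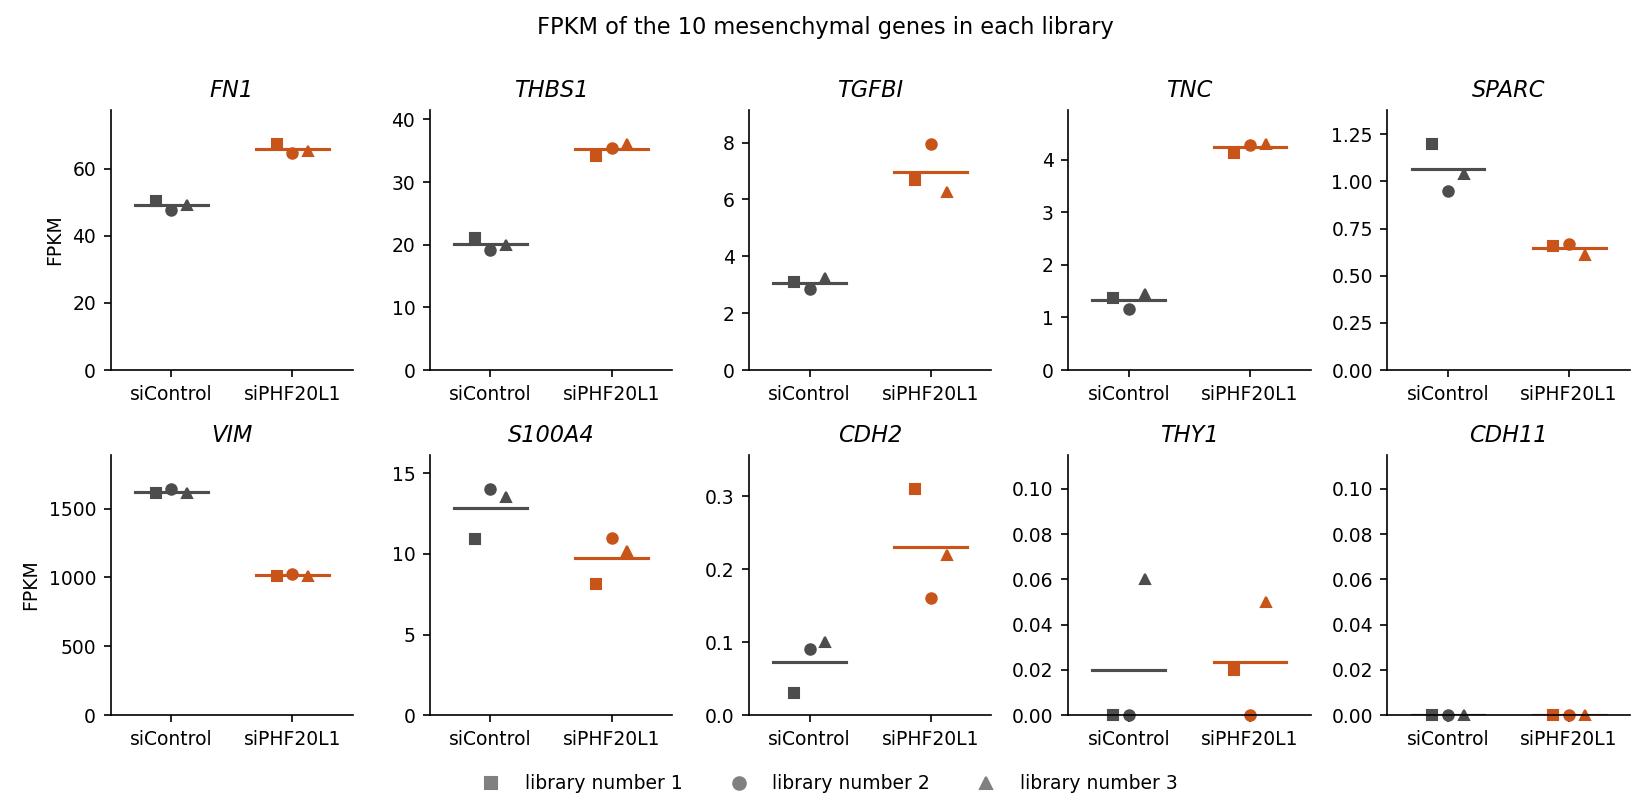
FPKM of the 10 genes in every library, with 1 panel per gene, a linear axis from 0 of its own scale, symbols for the library number and a line for the mean of 3 libraries. FN1, THBS1, TGFBI and TNC lie higher and VIM and SPARC lower in all siPHF20L1 libraries, S100A4 overlaps between the groups (10.95 against 10.99 FPKM), and CDH11 is at 0 throughout.

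Fibronectin, the main adhesive glycoprotein of the provisional matrix, was the most abundant transcript of the secreted members. FN1 (Entrez 2335) was at 50.47, 47.72 and 49.25 FPKM in siControl libraries 1, 2 and 3 and at 67.42, 64.74 and 65.27 FPKM in siPHF20L1 libraries 1, 2 and 3. Every siPHF20L1 library was above every siControl library, by a modest margin. The mean rose 1.34-fold, with a log2 difference of 0.41 (SE 0.05, limma, adjusted p = 0.000189), or 0.41 and 0.42 within the number 1 and the numbers 2 and 3. The value joins 10 RefSeq transcripts, so that splice forms with or without the extra domains of cellular fibronectin were not resolved. FN1 took place 3828 by absolute log2 difference among the 11560 genes tested.

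Thrombospondin-1 is a trimeric glycoprotein that binds CD47, CD36 and integrins, is known to inhibit angiogenesis and can release TGF-beta from its latent form. THBS1 (Entrez 7057) was at 21.12, 19.18 and 19.99 FPKM in siControl and at 34.10, 35.51 and 36.13 FPKM in siPHF20L1 libraries. The groups were far apart relative to their spread, 0.974 and 1.04 FPKM (SD, n = 3 each). THBS1 rose 1.75-fold (log2 difference 0.78, SE 0.06, limma, adjusted p = 1.21e-05). Between the libraries numbered 1 alone the difference was 0.67, against 0.84 between those numbered 2 and 3.

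TGFBI, named for its induction by TGF-beta, encodes a secreted protein with fasciclin domains and an integrin-binding RGD sequence. Its levels (Entrez 7045) were 3.08, 2.86 and 3.24 FPKM in siControl and 6.69, 7.96 and 6.25 FPKM in siPHF20L1 libraries. All siPHF20L1 libraries were above the siControl ones, and siPHF20L1 library 2 was the highest. TGFBI rose 2.28-fold (log2 difference 0.97, SE 0.09, limma, adjusted p = 4.49e-05). The difference was 0.91 within the number 1 and 0.99 within the numbers 2 and 3.

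Tenascin-C is a large, many-armed matrix protein that loosens the hold of cells on fibronectin and is abundant in tumour stroma and invasion fronts. TNC (Entrez 3371) was low, at 1.38, 1.16 and 1.44 FPKM in siControl and 4.14, 4.29 and 4.31 FPKM in siPHF20L1 libraries. At the estimated depth and a transcript of 7641 nt this is about 153 to 190 fragments in a siControl and 538 to 574 in a siPHF20L1 library. Among the members tested it changed most, 3.20-fold by the ratio of means (log2 difference 1.17, SE 0.08, limma, adjusted p = 5.77e-06). It took place 363 by absolute log2 difference among all genes tested.

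Vimentin forms the intermediate filaments of mesenchymal cells. VIM (Entrez 7431) was at 1615.12, 1644.01 and 1612.83 FPKM in siControl and at 1009.95, 1024.41 and 1011.72 FPKM in siPHF20L1 libraries. The 3 libraries of a group differed little and the groups were far apart. VIM fell 1.60-fold (log2 difference -0.68, SE 0.06, limma, adjusted p = 2.86e-05), with -0.68 within the number 1 and within the numbers 2 and 3. It nevertheless remained among the most abundant transcripts of siPHF20L1 cells, at rank 25, and its share of the summed FPKM went from 0.388% to 0.409% in siControl down to 0.249% to 0.254% in siPHF20L1 libraries. Because RNA was taken from whole cultures, fewer cells with a transcript and less of it per cell cannot be told apart.

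S100A4 (Entrez 6275) was at 10.95, 14.04 and 13.54 FPKM in siControl and at 8.15, 10.99 and 10.18 FPKM in siPHF20L1 libraries. The library numbered 1 was the lowest of its group in each case, and siControl library 1 lay just below siPHF20L1 library 2, so the groups overlapped. S100A4 was 1.31-fold lower by the ratio of means (log2 difference -0.36, SE 0.12, limma, adjusted p = 0.0302). The call was lost without siControl library 2 (limma, adjusted p = 0.108) or 3 (0.0894), without siPHF20L1 library 1 (0.0656) or 3 (0.0547), and with every expressed gene tested (0.0624). Over 17 alternatives its adjusted p ran from 2.98e-05 to 0.108. The fall was similar within the number 1 (-0.39) and within the numbers 2 and 3 (-0.35). Its transcript of 600 nt gave only about 83 to 146 fragments per library.

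SPARC, or osteonectin, is a collagen-binding matricellular protein. SPARC (Entrez 6678) was at 1.20, 0.95 and 1.04 FPKM in siControl and at 0.66, 0.67 and 0.61 FPKM in siPHF20L1 libraries, about 61 to 76 and 39 to 43 fragments. All siPHF20L1 libraries were lower, opposite to FN1, THBS1, TGFBI and TNC. With no filter on low values, where 16.7% of 16664 genes were lower and 25.2% higher, SPARC was lower (log2 difference -0.32, SE 0.06, limma, adjusted p = 0.0039).

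N-cadherin and cadherin-11, the cadherins commonly gained in a mesenchymal transition, were absent or nearly so. CDH2 (Entrez 1000) was at 0.03, 0.09 and 0.10 FPKM in siControl and at 0.31, 0.16 and 0.22 FPKM in siPHF20L1 libraries, about 2, 7 and 7 against 23, 12 and 16 fragments. The groups did not overlap, but all values were very low, and the log2 difference without the filter was 0.20 (SE 0.05, limma, adjusted p = 0.0187). It was 0.35 within the number 1 and 0.12 within the numbers 2 and 3. CDH11 (Entrez 1009) was listed at 0 in all 6 libraries. At the estimated depth, 3 fragments in its longest transcript of 6874 nt would be 0.0249 to 0.0257 FPKM, the upper limit that a count of 0 allows, for counting error only. THY1 (Entrez 7070) was at 0, 0 and 0.06 FPKM in siControl and at 0.02, 0 and 0.05 FPKM in siPHF20L1 libraries, at most about 4 fragments, and no difference was detectable at this depth. Of the 10 genes labelled mesenchymal, these 3 and SPARC thus had means near or below 1 FPKM in either group.

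**Figure D2:**
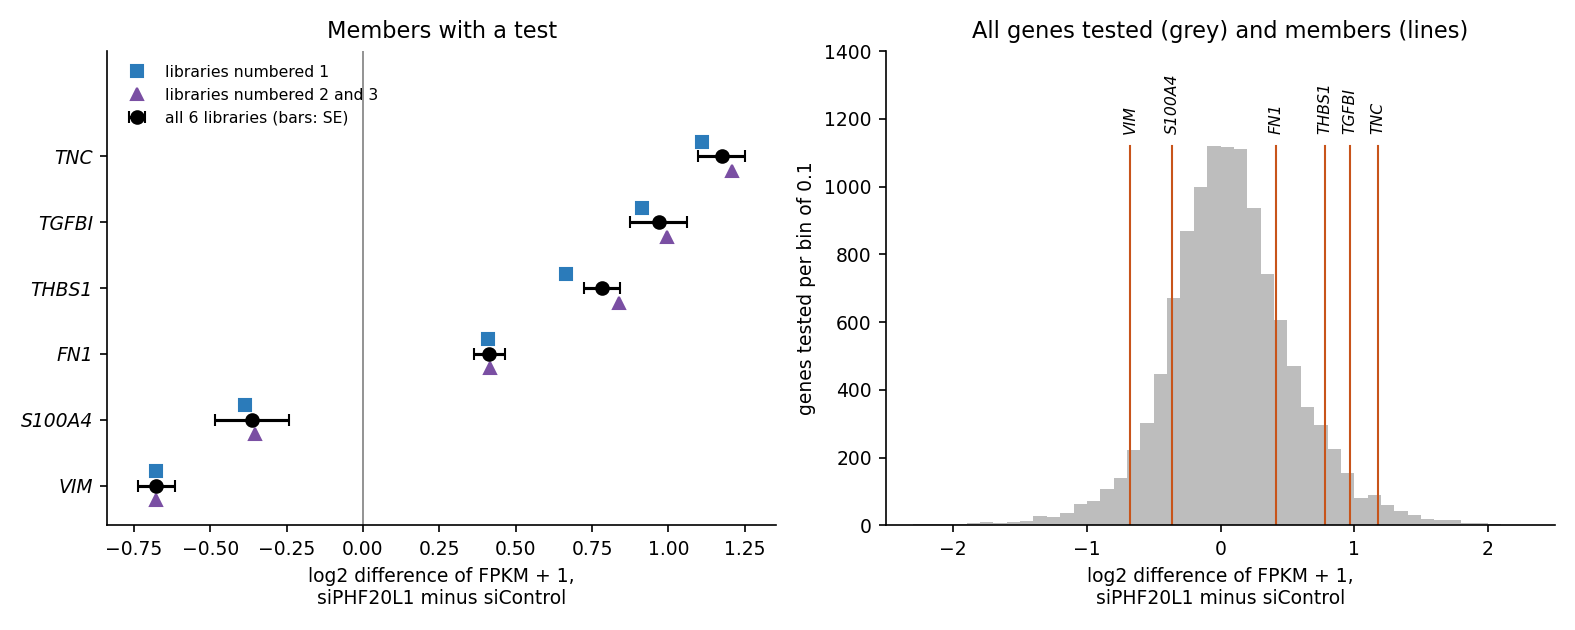
Left, log2 differences of FPKM + 1 (siPHF20L1 minus siControl) of the 6 members tested, with black points and SE bars for all libraries, squares for the libraries numbered 1 and triangles for those numbered 2 and 3. Right, the same values as lines over the histogram of all 11560 genes tested, with TNC (1.17) and TGFBI (0.97) far into the right side and VIM (-0.68) into the left.

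Other matricellular and secreted matrix genes moved in both directions. Of 19 tested from this list, 7 were higher, 8 lower and 4 did not pass, with a median log2 difference of -0.12. Calls were common everywhere, with 34.0% of all genes tested higher and 24.7% lower. FBN1, the main component of microfibrils, rose from 4.94 ± 0.301 to 12.8 ± 0.547 FPKM (SD, n = 3 here and below). NOV, which encodes the matricellular protein CCN3, rose from 8.83 ± 0.507 to 16.1 ± 0.457 FPKM, and LTBP1, which tethers latent TGF-beta to the matrix, from 2.29 ± 0.170 to 4.23 ± 0.518 FPKM. The SPARC relative FSTL1 fell from 153 ± 3.59 to 82.9 ± 0.941 FPKM. The microfibril gene MFAP2 fell from 31.5 ± 1.12 to 18.5 ± 2.04 FPKM and ECM1 from 186 ± 15.9 to 127 ± 5.92 FPKM. None of these 6 genes had an adjusted p above 0.000359 (limma). Within the thrombospondin family, THBS2 fell from 7.78 ± 0.352 to 5.53 ± 0.483 FPKM (limma, adjusted p = 0.00157). THBS3 was low, rose only from 1.52 ± 0.106 to 1.95 ± 0.202 FPKM and was close to the threshold (limma, adjusted p = 0.0425).

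Of 14 cell surface receptor genes of the secreted members that were tested, 7 were higher, 2 lower and 5 not past the threshold, with a median log2 difference of 0.14. All genes tested were also more often higher (34.0%) than lower (24.7%), with a median of 0.05. The integrin subunit gene ITGB3, whose product pairs with ITGAV to bind fibronectin, thrombospondin-1 and tenascin-C, rose from 1.65 ± 0.231 to 5.23 ± 0.182 FPKM (limma, adjusted p = 7.30e-06). SDC4, a fibronectin co-receptor at focal adhesions, rose from 38.7 ± 1.57 to 76.5 ± 1.69 FPKM and SDC1 from 43.2 ± 1.56 to 73.9 ± 1.47 FPKM. ITGA5 and ITGB1, which form the main fibronectin receptor, were among the 7 higher genes, by smaller margins. ITGA5 rose 1.18-fold, from 66.6 ± 4.79 to 78.6 ± 4.53 FPKM (limma, adjusted p = 0.0187). ITGB1 rose 1.29-fold, from 503 ± 39.8 to 651 ± 54.1 FPKM (limma, adjusted p = 0.00486). ITGB5 fell from 38.8 ± 2.32 to 20.9 ± 2.16 FPKM, and the thrombospondin receptor LRP1 from 24.5 ± 0.776 to 19.9 ± 1.28 FPKM. CD47 and ITGAV did not pass.

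Among cadherins and catenins, 1 of 6 genes tested was higher and 3 lower, beside 34.0% higher and 24.7% lower over all genes tested. CDH4, or R-cadherin, a close relative of CDH2, was the most abundant cadherin of the list and rose from 29.5 ± 0.295 to 59.0 ± 1.08 FPKM (log2 difference 0.97, limma, adjusted p = 1.72e-06). CTNNA1, which encodes alpha-catenin, fell from 168 ± 2.53 to 133 ± 2.48 FPKM. The other lower genes were CDH24 and CTNNB1, which encodes beta-catenin and was barely past the threshold (limma, adjusted p = 0.04998) and did not pass under 12 of the 17 alternatives. The number of lower genes was 1, CTNNA1 alone, when any of siControl libraries 2 and 3 or siPHF20L1 libraries 1 and 3 was left out.

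Intermediate filament genes other than VIM also went both ways, with 3 of 13 tested higher and 5 lower. The shares over all genes tested were 34.0% and 24.7%. The lamin gene LMNB2 rose from 84.2 ± 2.68 to 151 ± 5.62 FPKM, and SYNM, whose product assembles with vimentin, rose from 3.56 ± 0.411 to 5.39 ± 0.273 FPKM. The third higher gene is NES, which encodes nestin, another partner of vimentin. It was at 0.60 to 0.72 FPKM in siControl and 1.14 to 1.46 FPKM in siPHF20L1 libraries, so it passed the filter only through the group where it was high, and its call lends no support to the count. It was tested under 11 of the 17 alternatives. The keratin genes KRT81 and KRT7 fell from 81.0 ± 5.83 to 50.8 ± 3.65 and from 182 ± 12.4 to 137 ± 8.16 FPKM. DST, a cytoskeletal linker, fell from 70.4 ± 9.80 to 53.3 ± 6.36 FPKM, a call lost without siPHF20L1 library 2 (limma, adjusted p = 0.0524) or 3 (0.0547) and with the numbers 2 and 3 averaged (0.0567). Another lamin gene, LMNB1, fell from 44.3 ± 3.27 to 34.2 ± 2.80 FPKM (limma, adjusted p = 0.00376). KRT8, KRT18 and the lamin gene LMNA did not pass. With the replicate number as a block 5 genes of this list were higher.

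Among the other S100 genes, 4 of 7 tested were lower and 1 higher, beside 24.7% lower and 34.0% higher over all genes tested. S100A10, the partner of annexin A2, fell from 420 ± 42.3 to 260 ± 26.9 FPKM (limma, adjusted p = 0.000333), S100A2 from 11.1 ± 1.22 to 6.97 ± 0.490 FPKM and S100A3 from 20.0 ± 1.02 to 16.5 ± 0.943 FPKM. The call of S100A3 was lost with the numbers 2 and 3 averaged (limma, adjusted p = 0.079). S100A6, the other lower gene, went from 561 ± 15.1 to 493 ± 39.6 FPKM and was close to the threshold (limma, adjusted p = 0.0478). The number of lower genes was 3 with no filter, with quantile normalization, with equal sums or without the intensity trend. It was also 3 without siControl library 1, 2 or 3 and without siPHF20L1 library 2 or 3. With the numbers 2 and 3 averaged it was 2. S100A16 was the only higher gene of the list, from 205 ± 13.1 to 232 ± 5.45 FPKM, a call that was lost under 8 of the 17 alternatives, among them median-ratio size factors (limma, adjusted p = 0.249) and the omission of siControl library 1 (0.0803) or 3 (0.101) or of siPHF20L1 library 2 (0.118) or 3 (0.101).

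Known regulators of the epithelial to mesenchymal transition are given next, and their link to the changes of the members was not tested. Of 6 transcription factors of the epithelial to mesenchymal transition that were tested, SNAI2 rose from 2.17 ± 0.211 to 6.27 ± 0.536 FPKM and TCF3 from 20.7 ± 1.69 to 35.6 ± 3.67 FPKM. ZEB1 fell from 39.8 ± 3.20 to 30.9 ± 1.58 FPKM, SNAI1 from 2.25 ± 0.384 to 1.52 ± 0.0945 FPKM and FOXC1 from 7.27 ± 0.362 to 4.96 ± 0.103 FPKM. The call of SNAI1 was lost without siControl library 2 (limma, adjusted p = 0.0536). In TGF-beta signalling, the pathway known to induce several of the secreted members, 8 of 14 genes tested were lower and 1 higher, with a median log2 difference of -0.36, beside 24.7% lower and 34.0% higher over all genes tested. The co-receptor gene TGFBR3 fell from 12.7 ± 0.915 to 2.67 ± 0.0907 FPKM and the receptor gene TGFBR1 from 7.85 ± 1.21 to 3.58 ± 0.514 FPKM. TGFB2, a ligand gene, rose from 22.9 ± 1.80 to 36.3 ± 2.01 FPKM. None of these 3 genes had an adjusted p above 0.000188 (limma).

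**Figure D3:**
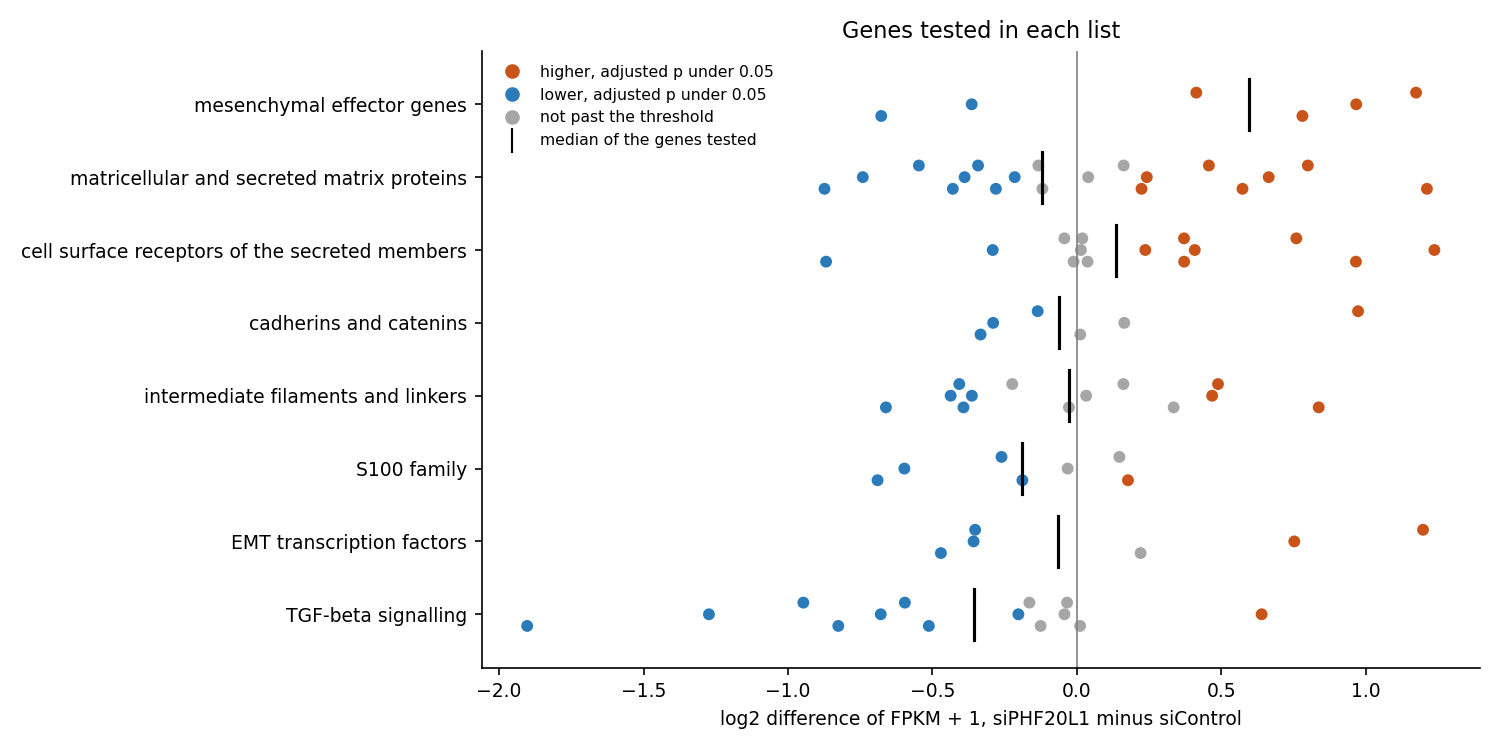
Log2 differences of FPKM + 1 (siPHF20L1 minus siControl) of the genes tested in each list, 1 point per gene, coloured by call, with a black bar for the median. The receptors lie mostly to the right, with 7 higher and 2 lower, TGF-beta signalling mostly to the left, with 8 lower and 1 higher, and the other lists spread over both sides.

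Exons of other genes on the opposite strand overlap those of VIM (VIM-AS1), SPARC, CDH2, THY1, TNC and THBS1 in GENCODE release 29. Whether the authors' counting used strand is not given in the sources used here, so reads of these partners cannot be told apart from those of the members. The THBS1 partner FSIP1 was at 0.10 to 0.31 FPKM in these libraries. CDH11 overlaps AC010533.1 on the same strand, which counting by strand would not separate, but CDH11 was listed at 0. No overlap was annotated for FN1, TGFBI and S100A4.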

How the data were processed

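Poly-A RNA of 6 MDA-MB-231 libraries (3 siControl, 3 siPHF20L1) was made into libraries with a stranded kit, per the labels' protocols. The deposited values are FPKM, 1 per gene and library, per the file headers. Build GRCh37 and the tools TopHat2 2.1.1, Bowtie 0.12.2 and HTSeq 0.6.0 are named, with no role, in the submitters' processing notes. How the FPKM were made is not given in the sources used here. The symbols of 26 genes had turned into dates and were restored through the Entrez identifier. Because FPKM are not counts, limma 3.58.1 (R 4.3.3) with an intensity trend was run on log2(FPKM + 1) of genes with at least 1 FPKM in at least 3 libraries, two-sided, with Benjamini-Hochberg adjustment over all 11560 genes and a threshold of 0.05. It was tested on simulated data. Depth was estimated from the steps that FPKM times transcript length (GENCODE release 29) takes in genes shorter than 1500 nt. Fragment numbers are therefore approximate. Same-numbered libraries deviated together from their group means (correlation across genes 0.73, 0.44 and 0.42 for 1, 2 and 3), so a fit with the replicate number as a block is an alternative. The crossed pairs were at 0.49 (siControl 3 with siPHF20L1 2) and 0.31 (2 with 3), so the values set number 1 apart but do not separate 2 from 3. The members and lists were chosen with earlier results of these data known. Genes were named by rule, namely all members, PHF20L1, up to 3 rises and 3 falls per list with groups that do not overlap, and 2 nearest genes for each of the 3 members that changed most. Others (THBS2, THBS3, ITGA5, ITGB1, CD47, ITGAV, CDH24, LMNA, LMNB1, KRT8, KRT18, S100A6 and marker genes) were named after their values were seen. 1 gene that the rule names is not reported here.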

Additional observations from a re-analysis of the deposited data

How the results depend on the processing

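The alternatives were other pseudocounts, filters, scalings and variance priors, the replicate block, the libraries numbered 2 and 3 alone or averaged, and each library left out. FN1, THBS1, TGFBI, TNC and VIM kept direction and call in each one that tested them (TNC was not tested with the filter at 5 FPKM). The size of the VIM fall depended on the scaling. Its log2 difference was -0.45 with quantile normalization and -0.76 with median-ratio size factors, against -0.68. With the numbers 2 and 3 averaged, 1872 genes were lower over all genes against 2851, 1 member was lower against 2, and S100A4 was at -0.37 without passing (limma, adjusted p = 0.0942). With no filter S100A4 was at -0.36 and did not pass. With each library left out in turn, the number of members lower was 1 to 2 and the log2 difference of S100A4 -0.47 to -0.25. THBS1 was at 0.67 between the libraries numbered 1 (no test, chosen after seeing the data). With the replicate number as a block, 4 members were higher and 2 lower as before, and S100A4 had an adjusted p of 2.98e-05 (limma). Over all genes the block gave 4946 higher and 3846 lower, and it changed no call of a member. Quantile normalization gave 3354 higher and 3495 lower, against 3926 and 2851. Depth limits what can be said of THY1, CDH2 and CDH11. The causes of these changes were not tested.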

Other observations

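The summed FPKM of the 10 genes fell from between 1701 and 1730 in siControl to between 1131 and 1149 in siPHF20L1 libraries, and VIM made up 94.8% to 95.0% and 89.2% to 89.3% of these sums. Without VIM the sum rose, from between 86.0 and 88.7 to between 121 and 124 FPKM, which rests mainly on FN1 and THBS1.

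Genes with the most similar pattern were found by the Euclidean distance of log2(FPKM + 1) values, centred on the siControl mean, over 6 libraries. TNC was nearest to TMEM216 (distance 0.11), which encodes a protein of the ciliary base, and to CTTN (0.11), the gene of the actin-binding cortactin, which went from 31.6 ± 1.61 to 71.5 ± 0.229 FPKM (SD, n = 3). TGFBI was nearest to the homeobox gene MEIS3 (0.12) and to PPCDC (0.17), an enzyme gene of coenzyme A synthesis. THBS1 was nearest to JRK (0.05) and to ATP6V0A4 (0.06), a subunit gene of the vacuolar proton pump.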
